A study of Mus musculus with 12 samples.

Results

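The heme synthesis and breakdown genes Alas1, Alad, Uros, Urod, Cpox, Ppox, Fech, Hmox1 and Blvrb were followed through the conversion of mouse hepatocytes toward biliary cells in livers injured with 3,5-diethoxycarbonyl-1,4-dihydrocollidine (DDC). They were chosen by symbol from a table of read counts, as 9 of its 53599 rows, and all 9 passed the filter on low counts. Another 3 enzyme genes of the same pathway (Alas2, Hmox2 and Blvra) are described beside them.

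Heme is an iron-bearing porphyrin made by a chain of enzymes that starts and ends inside mitochondria. ALAS1 makes the precursor 5-aminolevulinate and is the rate-limiting, heme-repressed step in liver, where most heme goes into cytochromes P450. ALAD, UROS and UROD take part in building the porphyrin ring in the cytosol, CPOX and PPOX oxidise it in mitochondria, and ferrochelatase (FECH) inserts the iron. Heme oxygenase (HMOX1, inducible, and HMOX2, constitutive) opens the ring to biliverdin, which biliverdin reductases (BLVRA, BLVRB) turn into bilirubin. DDC acts by blocking ferrochelatase: a porphyrin with a methylated nitrogen, formed in the liver from DDC, inhibits the enzyme, so that protoporphyrin builds up and plugs bile ducts.

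The libraries hold bulk RNA from sorted liver cells of mice with genotype WT. All 4 groups came from animals given AAV8-TBG-Cre, a virus whose hepatocyte promoter (TBG) drives Cre recombinase, and then, from 1 week later, food with 0.1% DDC for 8 weeks. Cells with EGFP thus trace to hepatocytes that received the virus, and the labels name no reporter allele. The early group is EGFP+ Cd24- Epcam-, the intermediate group EGFP+ Cd24+ Epcam- and the full group EGFP+ Cd24+ Epcam+. The resident biliary epithelial cells (BEC) are EGFP- Epcam+. Each group had 3 replicates. The labels do not say whether these came from separate animals, so p-values measure the spread between these samples. Every group, early included, had been exposed to DDC, and no group without it is part of the comparisons. The labels give neither age nor strain.

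Promoter sequences are shown for 4 synthesis genes. Alas1, Uros and Urod fell at the first step and held a match to a motif marked in capitals below. Ppox did not fall and held no such match. The falls of Uros and Urod at that step did not hold on total counts, as given below. Alad, not shown, also fell and held such a match. The motifs do not divide the genes by direction, since Cpox and Blvrb, which fell as well, held neither motif in their windows. Windows of 250 bases before a start site came from RefSeq (GRCm38.p6) and matched 7 of the 9 genes. The libraries were aligned to GRCm39 per the submitters' processing notes, so the positions of the windows are not those of the reads. Capitals mark the palindromic motif of NRF-1, a factor of nuclear genes for mitochondria, and the E-box CACGTG, on either strand. The Alas1 window, chr9:106247731-106247980, minus strand, held 2 NRF-1 matches, whose first bases lie at -224 and -195 from the start.
Alas1: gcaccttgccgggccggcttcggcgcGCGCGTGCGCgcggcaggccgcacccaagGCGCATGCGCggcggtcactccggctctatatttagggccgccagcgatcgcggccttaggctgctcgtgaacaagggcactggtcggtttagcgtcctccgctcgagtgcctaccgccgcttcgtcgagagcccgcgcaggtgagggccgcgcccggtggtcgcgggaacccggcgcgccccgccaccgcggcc
The Uros window, chr7:133709296-133709545, minus strand, held an NRF-1 match at -47 and an E-box at its far end.
Uros: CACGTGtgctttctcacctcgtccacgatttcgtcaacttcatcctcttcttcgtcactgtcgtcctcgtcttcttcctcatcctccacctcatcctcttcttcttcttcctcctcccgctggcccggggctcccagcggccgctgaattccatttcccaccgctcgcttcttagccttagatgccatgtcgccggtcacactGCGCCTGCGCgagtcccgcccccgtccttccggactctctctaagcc
The Urod window, chr4:116994414-116994663, minus strand, held an E-box.
Urod: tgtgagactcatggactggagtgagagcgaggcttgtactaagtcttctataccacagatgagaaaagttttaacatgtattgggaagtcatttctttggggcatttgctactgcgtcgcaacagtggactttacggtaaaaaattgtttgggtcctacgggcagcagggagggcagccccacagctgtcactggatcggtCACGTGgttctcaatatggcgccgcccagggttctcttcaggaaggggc
The Ppox window, chr1:171281187-171281436, minus strand, held neither.
Ppox: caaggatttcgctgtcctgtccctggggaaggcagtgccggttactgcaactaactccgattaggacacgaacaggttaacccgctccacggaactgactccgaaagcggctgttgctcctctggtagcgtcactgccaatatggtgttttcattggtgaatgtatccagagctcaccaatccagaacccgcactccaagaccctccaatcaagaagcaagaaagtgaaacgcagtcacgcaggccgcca

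NRF-1 matches stood in 2 of the 7 genes with a window (Alas1 and Uros), against 4.23% of 27025 genes with such windows. The E-box stood in 3 of 7 (Alad, Uros and Urod), against 6.86% of genes. GGGCGG was found in 5 of 7 genes, against 35.4%, and CCAAT in 3 of 7, against 37.5%. The antioxidant element core TGACNNNGC, read by NRF2 and BACH1, was in the windows of 0 of 7 genes, against 11.5%, and the erythroid GATA motif AGATAA was in 0 of 7, against 11.4%. The letters of no motif searched contain those of another. Alas1 and Uros each have a second window, for another start site, that held neither NRF-1 nor E-box. A match describes letters only, and genes with several start sites were counted once.

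Total counts ran from 15112893 to 19731887 per library. Levels are given as CPM, the usual depth-scaled counts, on a library size scaled by TMM, a factor that offsets a few very abundant genes. The factors were 0.652 to 0.672 in early libraries and 1.03 to 1.22 in the others. With total counts alone the log2 fold changes of the 16210 genes tested had a median that moved from 0.06 to 0.72 for intermediate against early, and the share of calls that were higher from 52.8% to 85.6%. Directions against early below are relative to the TMM scale, and those that do not hold on total counts are named. Sort markers followed the labels, with Cd24a at means of 3.20, 444, 1074 and 1073 CPM and Epcam at 0.592, 18.8, 254 and 866 CPM in early, intermediate, full and BEC. Alb, of hepatocytes, fell from 73507 CPM in early to 1653 CPM in BEC, and Krt19, of bile ducts, was at or under the floor of 3 counts in every early library and at 593 CPM in BEC.

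On the TMM scale, mean expression was highest in early cells for 8 of the 9 heme genes. Between early and intermediate, 8 fell and 1 (Ppox) rose by edgeR's test at an adjusted p under 0.05, where 54.4% of all genes were called, 25.7% lower and 28.7% higher. Between intermediate and full, 5 fell (Alas1, Alad, Urod, Fech and Blvrb) and 0 rose, where 40.7% of genes were called, 19.8% lower and 20.8% higher. Between full and BEC, 2 were lower in BEC (Urod and Blvrb), where 21.3% of genes were called, 10.6% lower and 10.7% higher. The median log2 fold changes of the 9 genes were -1.08, -0.50 and -0.12 at these steps, beside 0.06, 0.01 and 0.00 for all genes. BEC against full is listed with the steps here and below, but BEC are resident cells and not a later stage of conversion. On total counts 4 fell and 1 rose at the first step (median -0.40, where all genes had a median of 0.72), and 5 fell and 0 rose at the second (-0.30, beside 0.21). The share of all calls at the second step that were higher was 51.2% with TMM and 72.6% on total counts. The plot of all 9 genes by library shows the levels behind these counts.

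**Figure D1:**
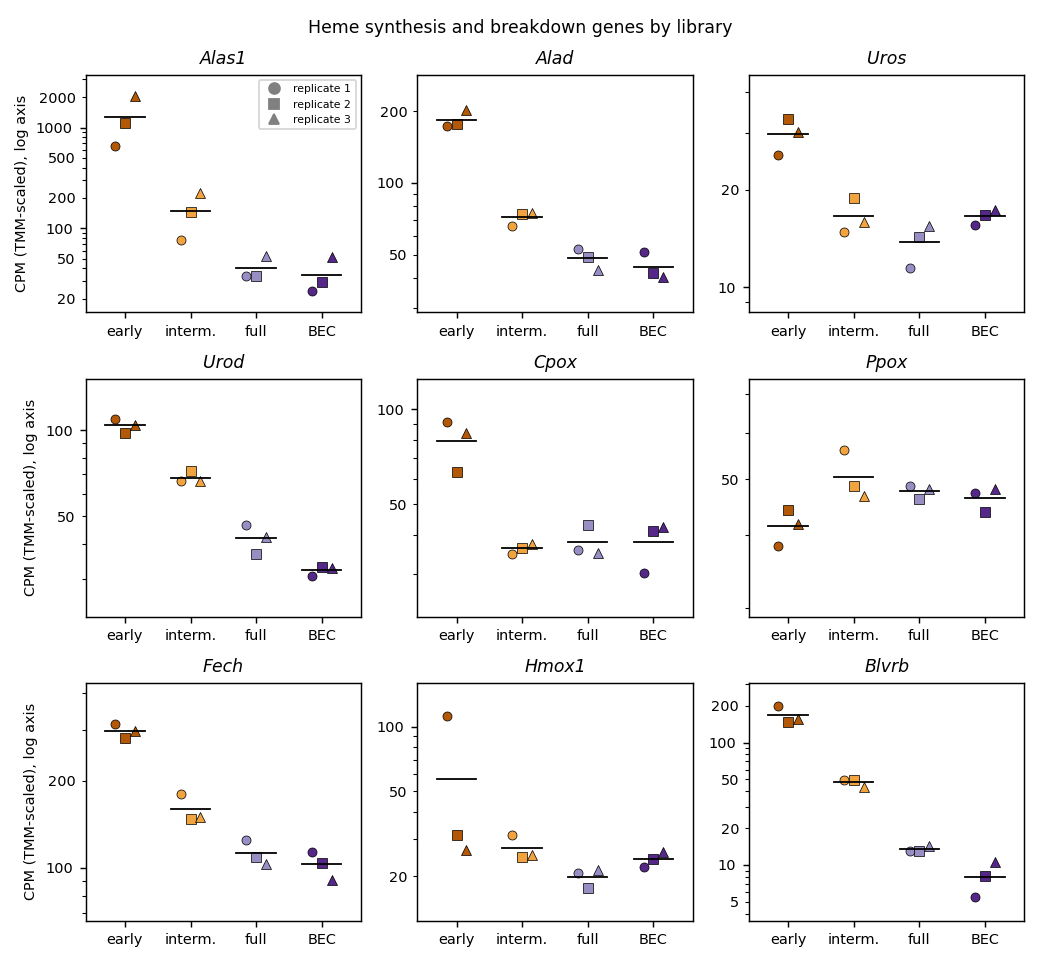
CPM (TMM-scaled, log axis) of each heme gene in each library of the early, intermediate, full and BEC groups, with symbols for replicates 1 to 3 and a line at each group mean. Alas1 and Blvrb fall furthest, Ppox stays between 38.4 and 56.2 CPM, and Hmox1 is high in a single early library at 112 CPM.

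The remaining comparisons share the early libraries with the first step. Full against early gave 8 lower and 0 higher, where 71.2% of all genes were called, 32.1% lower and 39.1% higher. BEC against early also gave 8 lower and 0 higher, where 73.1% were called, 33.0% lower and 40.0% higher. The gene not called in either was Ppox. On total counts, where all genes had medians of 1.005 and 1.004 and 81.8% and 80.3% of calls were higher, both gave 5 heme genes lower and 1 higher. The higher one was Ppox, by 1.07 in full (adjusted p = 1.81e-07) and by 1.03 in BEC (adjusted p = 2.45e-07), close to those medians. Cpox, Uros and Hmox1 were then not called, with Uros at -0.24 in full (adjusted p = 0.141). Across the 4 groups the F test called 8 of the 9 genes, beside 75.6% of all genes. Hepatocyte markers fell over the same groups, with the sum of 10 of them at 99373 to 104303 CPM in early, 15377 to 20091 in intermediate, 3326 to 4381 in full and 2038 to 2714 in BEC. Markers of other cell types also differed between the groups. The sum of 8 stellate cell and fibroblast markers was 95.6 to 273 CPM in early, 57.9 to 164 in intermediate, 44.8 to 74.2 in full and 49.3 to 86.9 in BEC. Of 7 tested, 1, 6 and 5 were lower than early in intermediate, full and BEC, and 0, 3 and 1 on total counts. Without early replicate 1 the count for intermediate was 5, and with the replicate number as a block it was 4. The sum of 8 endothelial markers was 16.1 to 24.3, 8.11 to 15.7, 3.48 to 5.82 and 3.47 to 7.04 CPM in the same order. Of 7 tested, 1, 4 and 2 were lower than early, and 0, 2 and 2 on total counts. The count for BEC was 4 without early replicate 1 and 5 with the block. The sum of 15 macrophage markers ran the other way, at 28.9 to 36.8, 32.8 to 45.1, 68.6 to 101 and 135 to 171 CPM. Of 13 tested, though, only 1 was higher and 2 were lower than early in each later group (6 higher in BEC on total counts). In BEC 2 were higher than in full. The F test over the 4 groups called Csf1r, Cd68 and Cx3cr1 and no other of the 13, so most of these markers did not share a called rise with the sum. The part of any of these in the fall of the heme genes was not tested, and fewer cells of a type and less RNA per cell cannot be told apart in bulk samples.

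**Figure D2:**
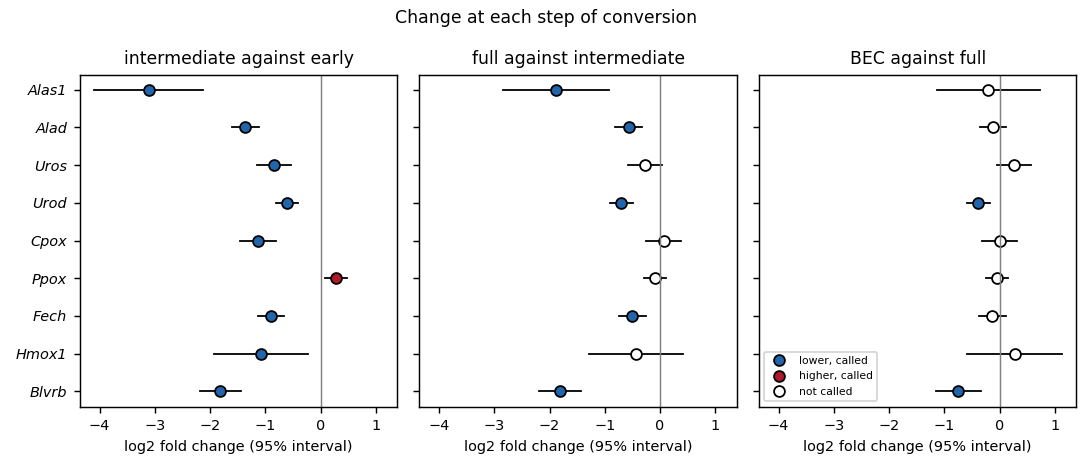
Log2 fold change of each heme gene for intermediate against early, full against intermediate and BEC against full, with 95% intervals. Blue points were called lower, red higher, and open points were not called. BEC against full compares resident with converted cells and is not a step of conversion. At the first step 8 genes were called lower and Ppox higher, and at BEC against full only Urod and Blvrb were called.

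Alas1, the rate-limiting enzyme, showed the deepest fall of the synthesis genes among the 9. It stood at 657, 1101 and 2066 CPM in early replicates 1 to 3, at 76.3, 144 and 222 CPM in intermediate, at 33.3, 33.3 and 53.4 CPM in full and at 23.8, 29.1 and 51.4 CPM in BEC. No early library overlapped an intermediate one, and no intermediate library a full one, while full and BEC libraries interleaved. Alas1 was 8.64-fold lower in intermediate than in early (log2 fold change -3.11 with SE 0.46, adjusted p = 5.98e-05 by edgeR) and a further 3.69-fold lower in full (-1.88, SE 0.44, adjusted p = 0.00375). BEC and full did not differ beyond error, with a log2 difference of -0.20 (95% interval -1.14 to 0.74). Full lay 31.9-fold and BEC 36.6-fold below early.

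Among the 9 genes, Alas1 was also the synthesis gene that varied most among early replicates. Its highest library was 3.14 times its lowest in early, 2.91 times in intermediate, 1.60 times in full and 2.16 times in BEC. Replicate 3 held the highest value in all 4 groups, as it did for 654 of 16210 genes (4.03%). In early, the ratio of highest to lowest library was 1.17 for Alad, 1.12 for Urod and 1.12 for Fech. Nr1d1, a circadian repressor that represses Alas1 transcription in liver and was picked here after its values were seen, stood at 225, 136 and 109.6 CPM in early replicates 1 to 3, with the lowest value in the library where Alas1 was highest. In intermediate it was at 117, 57.0 and 65.5 CPM, lowest in replicate 2, whereas Alas1 was highest in replicate 3. It was at 95.6, 68.3 and 64.2 CPM in full and 98.0, 97.0 and 93.3 CPM in BEC. Nr1d2, of the same list of regulators, went the other way in early. It stood at 169, 130 and 175 CPM, highest in the library where Alas1 was highest. Markers of stellate cells and fibroblasts summed to 95.6, 237 and 273 CPM over 8 genes in the early replicates, of which Col1a1 made 18.03, 49.2 and 55.5 CPM, again with replicate 1 lowest. Whether Nr1d1, Nr1d2 or these markers have a part in the spread of Alas1 was not tested.

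Alas2 is the erythroid form of the same enzyme, and it fell at the same steps as Alas1 from a far lower level. It stood at 18.5, 21.5 and 32.9 CPM in early, 1.95, 2.47 and 3.00 CPM in intermediate, 0.213, 0.714 and 0.787 CPM in full and 0.385, 0.839 and 1.23 CPM in BEC. Replicate 3 was again the highest in each group, at 3.70 times the lowest library in full and 3.20 times in BEC. The fall was -3.29 on the log2 scale at the first step (SE 0.36, adjusted p = 4.02e-06) and -2.11 at the second (SE 0.44, adjusted p = 0.00174). Red cell markers were near 0 throughout: Hba-a1 was at 0 in all early libraries, Hbb-bs at 0.237, 0 and 0 CPM, and the sum of 11 erythroid markers was 2.36 to 3.48 CPM in early and 0.931 to 2.06 CPM in the other groups. Per kilobase of principal transcript, the Alas1 level was 21.3, 30.7 and 37.6 times that of Alas2 in the early libraries.

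The cytosolic ring-building enzymes came next. Alad, which joins 2 aminolevulinate molecules and is also the target of lead poisoning, stood at 173, 177 and 202 CPM in early, 66.2, 73.9 and 74.8 CPM in intermediate, 52.7, 49.0 and 43.0 CPM in full and 51.3, 41.8 and 40.3 CPM in BEC. The early libraries were all higher than the rest, and BEC overlapped full. Alad fell 2.57-fold at the first step (log2 fold change -1.36, SE 0.11, adjusted p = 2.88e-07) and 1.49-fold at the second (-0.57, SE 0.11, adjusted p = 0.00107). BEC differed from full by -0.12 (95% interval -0.36 to 0.12).

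Uros closes the ring, and of the 3 steps its fall passed only at the first. It stood at 25.6, 33.1 and 30.2 CPM in early, 14.8, 18.9 and 15.9 CPM in intermediate, 11.4, 14.3 and 15.5 CPM in full and 15.6, 16.7 and 17.3 CPM in BEC. Early libraries were all above the others, and every BEC library was just above every full library. Uros fell 1.79-fold at the first step (-0.84, SE 0.14, adjusted p = 0.00022), a call lost on total counts (-0.17, adjusted p = 0.306). The later differences, -0.27 (95% interval -0.58 to 0.04) and 0.27 for BEC against full (-0.04 to 0.57), did not pass. Uros was lower in BEC than in early by 0.84 on the log2 scale (adjusted p = 0.000108), a difference that turned to 0.03 on total counts.

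Urod trims the ring's side chains, and its failure causes porphyria cutanea tarda. On the TMM scale it fell from early to intermediate and on to full, and was lower in BEC than in full. It stood at 109.7, 97.9 and 105 CPM in early, 66.1, 72.2 and 66.2 CPM in intermediate, 46.7, 36.7 and 42.3 CPM in full and 30.7, 33.1 and 32.7 CPM in BEC. None of its 4 groups overlapped another. The log2 fold changes were -0.61 (SE 0.09, adjusted p = 9.40e-05), -0.70 (SE 0.10, adjusted p = 5.42e-05) and -0.38 (SE 0.10, adjusted p = 0.0106). On total counts the first of these turned to 0.05 (adjusted p = 0.625), and without full replicate 1 the last was -0.30 (adjusted p = 0.0577).

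Cpox, the first of the mitochondrial oxidases, dropped once and then stayed level. It stood at 90.9, 63.3 and 84.2 CPM in early, 34.8, 36.3 and 37.4 CPM in intermediate, 35.7, 42.8 and 35.0 CPM in full and 30.2, 41.2 and 42.3 CPM in BEC. Early lay above all others, and the other 3 groups overlapped. Cpox fell 2.20-fold at the first step (-1.14, SE 0.15, adjusted p = 2.37e-05), and the later differences were 0.06 (95% interval -0.26 to 0.39) and 0.00 (-0.32 to 0.32). On total counts it was still lower in intermediate, but full against early (-0.21) and BEC against early (-0.20) no longer passed.

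Ppox, which makes protoporphyrin, the substrate of ferrochelatase, was the exception among the synthesis enzymes. It stood at 38.4, 44.2 and 41.8 CPM in early, 56.2, 48.5 and 46.7 CPM in intermediate, 48.7, 46.1 and 48.1 CPM in full and 47.2, 43.8 and 48.0 CPM in BEC. Every intermediate and full library lay above every early one, by a small margin. Ppox rose 0.28 on the log2 scale at the first step (SE 0.09, adjusted p = 0.0201), and the F test over the 4 groups did not call it (adjusted p = 0.0756). On total counts the rise was larger (0.95, with 1.07 for full against early), and full against intermediate was 0.12 in place of -0.08. The rise did not pass with DESeq2 (0.23, adjusted p = 0.0506), without early replicate 1 (0.23, adjusted p = 0.0710) or without intermediate replicate 1 (0.21, adjusted p = 0.0984). BEC against early was 0.16 (95% interval -0.04 to 0.36).

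Exons of Ppox share 791 bases (17.5% of its exon bases) with B4galt3, a galactosyltransferase gene on the opposite strand, in GENCODE M21, and the strand setting of the counting is not given in the sources used here. B4galt3 stood at 13.5, 17.0 and 13.1 CPM in early, 22.3, 26.2 and 25.0 CPM in intermediate, 27.4, 29.6 and 26.2 CPM in full and 34.7, 38.4 and 34.6 CPM in BEC. It rose by 0.76 at the first step (SE 0.12, adjusted p = 0.000119). Without strand, reads of both genes cannot be told apart in the shared bases, and the part of B4galt3 in the Ppox counts was not tested. Smaller opposite-strand overlaps touch Alas1 (465 bases, 7.53%), Cpox (204 bases, 3.06%) and Alas2, which shares 311 bases (12.9%) with Apex2.

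Fech, the ferrochelatase gene and so the target of DDC, was expressed in every group and fell at the first 2 steps, as Alas1, Alad and Urod did. It stood at 314, 279.6 and 297 CPM in early, 179.9, 148 and 150.2 CPM in intermediate, 125, 109 and 103 CPM in full and 113, 104 and 90.8 CPM in BEC. Early, intermediate and full did not overlap one another, while BEC overlapped full. Fech fell 1.87-fold at the first step (-0.90, SE 0.11, adjusted p = 1.42e-05) and 1.42-fold at the second (-0.50, SE 0.11, adjusted p = 0.00271). BEC differed from full by -0.13 (95% interval -0.37 to 0.11) and lay 2.89-fold below early. On total counts the first fall was -0.23 and did not pass (adjusted p = 0.0757), while full against intermediate (-0.30, adjusted p = 0.0405) and BEC against early (-0.66, adjusted p = 8.01e-05) did.

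Ratios between genes of the same library do not depend on the scaling of that library. Per kilobase of principal transcript, the Alas1 level relative to Fech, the entry of the pathway against its blocked exit, was 4.05, 7.61 and 13.4 in early replicates 1 to 3. It was 0.819, 1.89 and 2.86 in intermediate, 0.516, 0.590 and 0.997 in full and 0.406, 0.542 and 1.09 in BEC. Alas1 exceeded Fech in all early libraries and in 2 of 3 intermediate ones, and lay below it in all full and 2 of 3 BEC libraries. With the length of all exons joined, chosen after seeing the data, the group means were 9.69, 2.15, 0.813 and 0.789 in place of 8.36, 1.85, 0.701 and 0.681, and full replicate 3 turned to above 1, at 1.16.

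Set against Ppox in the same library, each of the other 6 synthesis enzymes among the 9 genes was higher in early. Ppox was the only synthesis enzyme of the 9 never called lower. Higher ratios in early thus follow from the choice of reference and are no separate support for a fall. Any B4galt3 reads in the Ppox counts would enter every ratio. Fech was 1.75 to 2.27 times Ppox per kilobase in early, 0.843 to 0.892 in intermediate, 0.596 to 0.710 in full and 0.524 to 0.666 in BEC. Alad was 5.85 to 7.05 times Ppox in early and 1.23 to 2.34 times in the other groups. Urod, whose fall at the first step did not hold on total counts, was 2.71 to 3.50 times Ppox in early and 1.44 to 1.82 times in intermediate. Uros, whose call at that step was also lost on total counts, was 0.690 to 0.774 of Ppox in early and 0.243 to 0.402 in the rest. For all 6 enzymes plotted, the 3 early libraries lay above all 9 others, a description with no test.

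**Figure D3:**
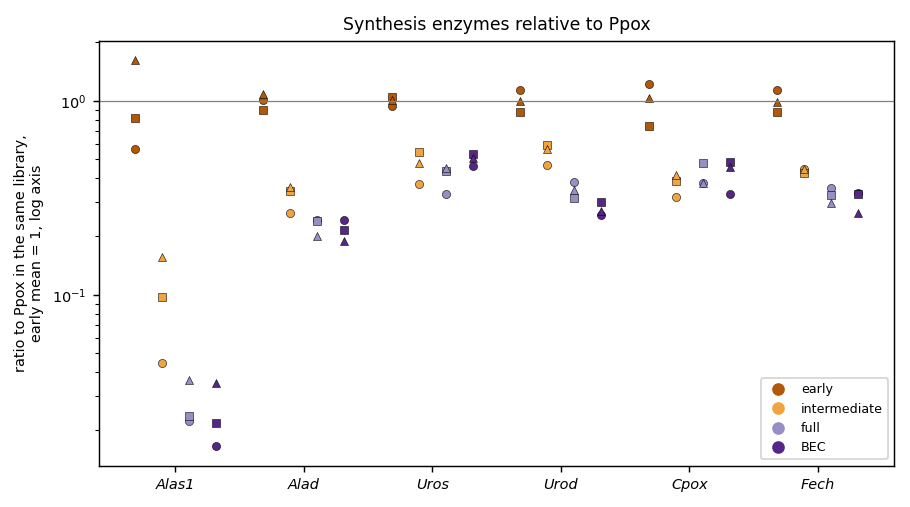
Ratio of each of 6 synthesis enzymes to Ppox within the same library (log axis), divided by the mean of the early ratios, with colours for groups and symbols for replicates. All early points lie above all other points for each gene, and Alas1 spans the widest range. Ppox, the reference, was not called lower in any comparison.

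The order of abundance within the pathway also changed. Per kilobase, Alas1 was the most abundant of the 9 genes in early, at a mean of 375 ± 212 CPM per kilobase (SD, n = 3), and Alad was the most abundant in intermediate (57.4 ± 3.79), full (38.7 ± 3.91) and BEC (35.7 ± 4.75). Uros was the least abundant in early (16.8 ± 2.14), intermediate (9.39 ± 1.20) and full (7.79 ± 1.18), and Blvrb in BEC (7.82 ± 2.49). The replicate spreads of Blvrb and of Uros (9.38 ± 0.505) overlap in BEC. In intermediate the spread of Alas1 (43.4 ± 21.5) overlaps that of Alad, and in replicate 3 Alas1 was above it, at 65.3 against 60.0 CPM per kilobase. The most and least abundant gene of each group by mean were the same with the length of all exons joined.

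Hmox1, the inducible heme oxygenase, differed from the other genes in that its high early mean came from a single library. It stood at 112, 31.3 and 26.5 CPM in early, 31.2, 24.6 and 25.1 CPM in intermediate, 20.6, 17.7 and 21.5 CPM in full and 22.0, 24.2 and 26.1 CPM in BEC. Early replicates 2 and 3 lay in or next to the intermediate range. The call at the first step (-1.08, SE 0.40, adjusted p = 0.0344) was lost without early replicate 1, where the log2 fold change was -0.10 (adjusted p = 0.609). It was also lost without intermediate replicate 2 (-1.02, adjusted p = 0.0958) or 3 (-1.03, adjusted p = 0.0856), where the size of the fall changed little. Without early replicate 1, full was still lower than early (-0.53, adjusted p = 0.00452) and full lower than intermediate (-0.44, adjusted p = 0.0130), while BEC against early was -0.26 (adjusted p = 0.117). On total counts the differences from early were -0.40, -0.64 and -0.36 for intermediate, full and BEC, and none passed. BEC lay above full in all libraries, by 0.27 (95% interval -0.58 to 1.13), which did not pass.

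Early replicate 1 was also the highest early library for 14 of 18 targets of NRF2, the factor of the oxidative stress response that induces Hmox1, against 2 and 2 for replicates 2 and 3. Over all 16210 genes tested the shares were 38.7%, 28.6% and 32.7%. The same count was 5, 2 and 2 for the 9 heme genes, 11, 2 and 6 for 19 iron genes, 9, 3 and 4 for 16 regulators of the pathway, 8, 2 and 5 for 15 genes of mitochondrial support, 4, 4 and 10 for 18 heme proteins, and 3, 4 and 3 for 10 hepatocyte markers. The cystine transporter Slc7a11 stood at 165, 48.2 and 33.1 CPM in early replicates 1 to 3. Gclc, of glutathione synthesis, stood at 1846, 1167 and 899 CPM, and Srxn1, a sulfiredoxin, at 574, 356 and 319 CPM; these and the other genes plotted with Hmox1 were chosen after their values were seen. Macrophages also express Hmox1, and the sum of 15 macrophage markers was 28.9 CPM in that library against 36.8 and 33.0 in early replicates 2 and 3. Early replicate 1 was the highest for 2 of the 13 markers tested, Cd68 (16.3 against 13.3 and 12.3 CPM) and Csf1r (4.11 against 3.91 and 3.80 CPM). The Kupffer cell marker Clec4f was at 1.03, 1.73 and 2.35 CPM, and Adgre1 at 0, 0 and 0.405 CPM. The part of these genes in the Hmox1 value was not tested.

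**Figure D4:**
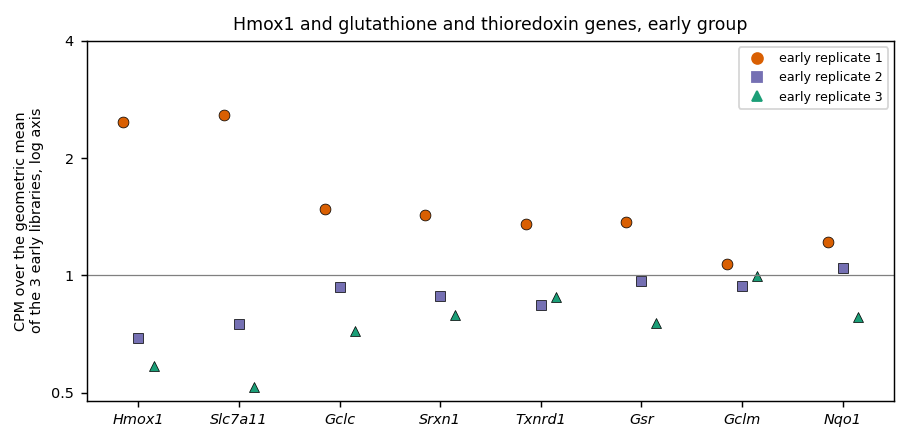
CPM of Hmox1 and 7 NRF2 targets (glutathione and thioredoxin genes, and Nqo1) in each early library, divided by the geometric mean of the 3 early libraries (log axis). The 7 were chosen after their values were seen, from 18 targets of which 14 are highest in replicate 1. Replicate 1 is the highest for each gene shown, with Hmox1 at 112 against 31.3 and 26.5 CPM. Gstm1, a target not shown, is highest in replicate 2, at 9308, 10825 and 9313 CPM.

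Hmox2 is the constitutive form, and its direction depended on the scaling. It stood at 52.5, 47.8 and 44.7 CPM in early, 37.3, 37.8 and 38.5 CPM in intermediate, 26.3, 29.6 and 28.5 CPM in full and 25.6, 24.8 and 25.8 CPM in BEC. It fell by 0.35 (adjusted p = 0.00422) and by 0.43 (adjusted p = 0.00155) at the first 2 steps, but on total counts the first of these was 0.31 (adjusted p = 0.00624) and the second -0.23 (adjusted p = 0.0501). Of its exon bases, 40.2% are shared with Cdip1 on the opposite strand. Per kilobase, Hmox1 was 2.36 times Hmox2 in early replicate 1 and 0.721 and 0.653 times in replicates 2 and 3.

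Blvrb, which reduces biliverdin and flavins, fell from early to intermediate and on to full, and was lower in BEC than in full. It stood at 197, 148 and 156 CPM in early, 49.2, 49.8 and 43.1 CPM in intermediate, 13.0, 13.1 and 14.3 CPM in full and 5.44, 8.11 and 10.6 CPM in BEC. No group overlapped another. Blvrb was 3.53-fold lower in intermediate (-1.82, SE 0.17, adjusted p = 1.00e-06), another 3.51-fold lower in full (-1.81, SE 0.18, adjusted p = 3.06e-06) and 1.67-fold lower again in BEC (-0.74, SE 0.19, adjusted p = 0.0107). BEC lay 20.7-fold below early. Blvrb and Urod were the heme genes called between BEC and fully converted cells.

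Blvra, the main biliverdin reductase of adult tissue, moved over a narrow range. It stood at 12.5, 13.0 and 13.4 CPM in early, 11.9, 10.9 and 12.8 CPM in intermediate, 10.6, 9.63 and 9.58 CPM in full and 10.5, 10.1 and 11.7 CPM in BEC. No step passed on the TMM scale, with log2 differences of -0.13 (adjusted p = 0.429), -0.26 (adjusted p = 0.113) and 0.12 (adjusted p = 0.581), but on total counts intermediate was higher than early by 0.54 (adjusted p = 0.00191). Full was lower than early by 0.39 (adjusted p = 0.0141), which turned to 0.48 on total counts (adjusted p = 0.00332). BEC against early was -0.26 (adjusted p = 0.0746) and turned to 0.60 on total counts (adjusted p = 0.000573). The Blvrb level per kilobase was 14.6 ± 2.80 times that of Blvra in early, 4.53 ± 0.693 times in intermediate, 1.54 ± 0.151 times in full and 0.834 ± 0.225 times in BEC (SD, n = 3 each).

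Genes that supply heme synthesis within mitochondria (carriers of glycine, iron and porphyrins, and iron-sulfur assembly) fell alongside. Of 15 tested, 14 fell at the first step and 12 at the second, where 25.7% and 19.8% of all genes fell, with 0 rising and medians of -0.87 and -0.62. On total counts these were 7 lower and 1 higher (median -0.21) and 7 lower and 0 higher (-0.41). In BEC 1 was lower than in full, or 2 with the replicate block and 2 without early replicate 1, where 10.6% of all genes were lower. Pgrmc1, a heme-binding partner of ferrochelatase, fell from 1589.9 to 454 CPM (-1.81, adjusted p = 8.28e-09) and to 178 CPM in full (-1.35). Slc25a39, a carrier of glutathione into mitochondria, was lower in BEC at 103 against 148 CPM (-0.52, adjusted p = 0.00193).

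Most heme transport genes fell, and a few rose. Of 11 tested, 9 fell and 2 rose at the first step (median -1.29) and 8 fell and 2 rose at the second (-0.68). In BEC 5 were lower and 1 higher than in full (-0.51). Of all genes, 54.4%, 40.7% and 21.3% were called. The shares lower and higher were 25.7% and 28.7% at the first step, 19.8% and 20.8% at the second, and 10.6% and 10.7% in BEC against full. Hpx, the plasma heme carrier hemopexin, fell from 2088 CPM in intermediate to 271 CPM in full (-2.94, adjusted p = 1.97e-06). Fabp1, a fatty acid carrier that also binds heme, fell from 451 to 32.2 CPM at the first step (-3.80). Hebp2, a heme-binding protein of the SOUL family, rose from 2.39 to 13.0 CPM (2.42, adjusted p = 5.72e-06) and to 22.6 CPM in full (0.80). Flvcr1, described as a heme exporter and more recently as a choline transporter, was higher in BEC at 31.1 against 19.0 CPM in full (0.71, adjusted p = 0.00111), and Lrp1, the receptor for heme bound to hemopexin, was lower at 102 against 305 CPM (-1.58).

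Regulators of the pathway moved in both directions. Of 16, 8 fell and 3 rose at the first step (median -0.33, where 54.4% of all genes were called). That split turned to 2 lower and 7 higher on total counts (0.33) and was 5 lower and 3 higher without early replicate 1. The shares of all genes lower and higher were 25.7% and 28.7% at the first step, 19.8% and 20.8% at the second, and 10.6% and 10.7% in BEC against full. At the second step, where 40.7% of all genes were called, 2 fell and 1 rose (-0.13), or 2 and 3 on total counts (0.07). Nr1i3, the receptor CAR, whose activation by drugs induces Alas1, fell from 40.0 to 2.92 CPM (-3.78, adjusted p = 2.59e-07), and Nr1i2, the related receptor PXR, from 55.7 CPM in intermediate to 31.5 CPM in full (-0.82). Rora, a nuclear receptor of the circadian clock, rose at that step from 85.4 to 102 CPM (0.25, adjusted p = 0.0370). Maff, a small partner of NRF2 and BACH1, rose from 26.1 to 78.7 CPM (1.59, adjusted p = 1.34e-05). In BEC 3 regulators were lower than in full and 0 higher, where 21.3% of all genes were called, with Nr0b2, the corepressor SHP, at 3.52 against 10.8 CPM (-1.62).

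Genes for proteins that use heme fell with those that make it. Of 18 heme proteins and partners (cytochromes P450, catalase and others), 17 fell and 0 rose at the first step (median -3.01), and 15 fell and 0 rose at the second (-1.83), with 17 and 14 lower on total counts, beside medians of -1.08 and -0.50 for the 9 heme genes. Of all genes, 25.7% fell at the first step and 19.8% at the second. No test of that difference was made. Cyp7a1, the rate-limiting enzyme of bile acid synthesis, fell from 269.6 to 18.1 CPM (-3.90, adjusted p = 2.08e-06), and Tdo2, the heme-dependent tryptophan dioxygenase, from 139 CPM in intermediate to 15.4 CPM in full (-3.18). Cyp27a1 was lower in BEC at 4.08 against 22.7 CPM in full (-2.47).

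Handling of the end products fell as well. The counts that follow stand beside shares of all genes of 25.7% lower and 28.7% higher at the first step, 19.8% and 20.8% at the second, and 10.6% and 10.7% in BEC against full. Of 8 genes for bilirubin uptake, binding, conjugation and export, 7 fell and 0 rose at each of the first 2 steps (medians -2.02 and -1.54), and 4 were lower and 1 higher in BEC than in full (-0.61). Slco1b2, an uptake carrier for bilirubin, fell from 815 to 71.5 CPM (-3.51, adjusted p = 2.93e-07) and to 10.02 CPM in full (-2.83). Abcc2, the canalicular exporter of conjugated bilirubin, was at 236 CPM in full and at 46.5 CPM in BEC (-2.35, adjusted p = 2.23e-07). Of 19 iron genes, 16 fell and 1 rose at the first step (median -0.87; 9 and 3 on total counts), 14 fell and 0 rose at the second (-0.63), and 7 were lower and 2 higher in BEC than in full (-0.22). Hamp, the iron hormone hepcidin, fell from 1161 to 96.0 CPM (-3.60) and to 10.7 CPM in full (-3.16), and Fbxl5, which degrades an iron regulatory protein when iron is plentiful, rose from 53.6 to 113 CPM (1.08, adjusted p = 8.22e-07). Tfrc, the transferrin receptor, was higher in BEC at 90.2 against 47.0 CPM (0.94), and Tfr2, the transferrin receptor that takes part in hepcidin control, was lower at 8.66 against 40.0 CPM (-2.21). The 18 NRF2 targets gave 15 lower and 1 higher at the first step (median -1.02; 11 and 2 on total counts), 12 lower and 2 higher at the second (-0.46), and 3 lower and 4 higher in BEC than in full (-0.09), the last turning to 5 lower and 4 higher with the replicate block and also without early replicate 1. Gstm1, a glutathione transferase, fell from 9816 to 1545 CPM at the first step (-2.67, adjusted p = 7.92e-09) and was lower in BEC at 237 against 436 CPM in full (-0.88). G6pdx, the NADPH-making glucose-6-phosphate dehydrogenase, rose from 13.5 to 20.5 CPM (0.59, adjusted p = 0.0206) and to 44.5 CPM in full (1.12). Slc7a11 fell from 14.1 CPM in intermediate to 2.51 CPM in full (-2.48, adjusted p = 0.00455), and Me1, the malic enzyme, was higher in BEC at 245 against 135 CPM in full (0.86).

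**Figure D5:**
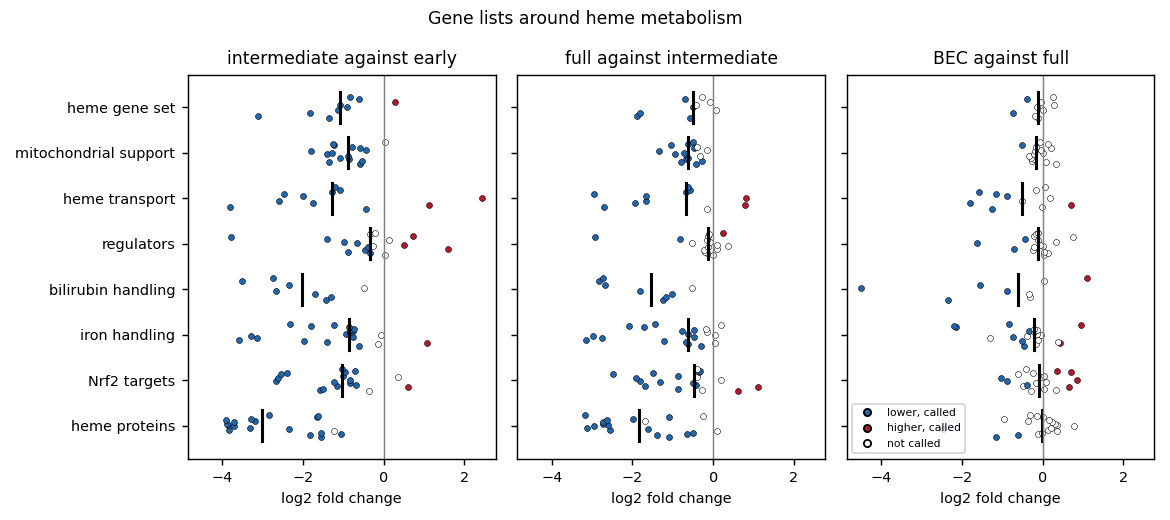
Log2 fold change of every tested gene of the heme gene set and of 7 related lists at each step; blue was called lower, red higher, open not called, and a bar marks each list's median. Heme proteins have the lowest median at the first step, -3.01, against -1.08 for the 9 heme genes.

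Genes whose pattern was most like that of a heme gene were found by Pearson's r of log2 CPM over the 12 libraries among 10922 genes at 10 CPM or more in a group. For Fech they were Ndufa7 (0.993), Adk (0.991) and Ube2l6 (0.991), and 1126 genes exceeded 0.95. Alas1 was most like Umps (0.993), Prkar2a (0.992) and Nampt (0.992), with 914 genes above 0.95. Hmox1 had 0 genes above 0.95, the nearest being Atg2a (0.941), 4933434E20Rik (0.926) and Stap2 (0.920). The libraries share their groups and scaling, so these values describe likeness of pattern only.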

How the data were processed

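RNA was sequenced from 12 sorted liver cell libraries, 3 in each of 4 groups taken from the sample titles. The authors deposited raw counts per gene symbol, made with STAR 2.7.10b and featureCounts 2.0.1 on GRCm39, per the submitters' processing notes. The annotation, the strand setting and the handling of reads that match several genes are not given in the sources used here. The authors also deposited a table of signal, in which each library's counts had been divided by its size factor (0.623 to 1.33). That table was used only to check that relation.

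Statistics were run in edgeR 4.0.16 (with limma 3.58.1) and DESeq2 1.42.0 under R 4.3.3, and figures were drawn with matplotlib 3.10.9 under Python 3.11.15. Of 53599 genes, filterByExpr kept 16210, holding 99.86% or more of each library's counts. All libraries entered 1 edgeR quasi-likelihood fit with TMM factors and a term per group, and a gene was called where its p, adjusted by Benjamini-Hochberg over all tested genes, was under 0.05. SE is the absolute log2 fold change over the root of F. Biological variation between replicates, as a coefficient common to all genes, was 14.8%. CPM were computed on library sizes times TMM factors, with a prior count of 2 before taking logs. The floor of 3 counts is 0.128 to 0.273 CPM and, like the intervals of any count, does not cover amplification. Per-kilobase levels use the longest principal transcript of GENCODE M21. The procedure was tested on simulated data.

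The heme genes and the related lists were chosen with earlier results of these data known. All heme genes and 3 other enzymes of the pathway are named, and some items on the lists are not reported here. From each other list, the called gene with the largest change in each direction at each step was named, where the higher group had at least 10 CPM.

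Labels number the replicates 1 to 3 in each group. Deviations from group means correlated across genes between same-numbered libraries. The r was 0.121 to 0.293 for intermediate and early, 0.137 to 0.322 for full and intermediate and 0.170 to 0.257 for BEC and full. It was 0.0960 to 0.209 for full and early and 0.0442 to 0.145 for BEC and early. Differently numbered libraries were not compared, so these values cannot decide whether the numbers pair the libraries. What the numbers mark is not given in the sources used here. Alternatives were DESeq2, other scaling factors, other filters, the replicate number as a block, the 6 libraries compared alone, a 1.5-fold minimum and leaving out each library. Promoters of Fech and Hmox1 and protein sequences were not used here.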

Additional observations from a re-analysis of the deposited data

How the results depend on the processing

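With 1 library left out at a time, the number of heme genes called ran from 7 to 9 for intermediate against early, 5 to 6 for full against intermediate, 1 to 2 for BEC against full, 8 to 8 for full against early, 7 to 8 for BEC against early and 8 to 8 across the 4 groups. The low value for BEC against full came without full replicate 1, where Urod was lost. Against a minimum 1.5-fold change the count was 6 for intermediate against early, with Urod (adjusted p = 0.408), Ppox (adjusted p = 1) and Hmox1 (adjusted p = 0.141) lost, 2 for full against intermediate (Alas1 and Blvrb) and 0 for BEC against full, where edgeR's usual test and DESeq2 gave 2 each. On total counts it was 5 for intermediate against early (4 lower, 1 higher), with Fech, Uros, Urod and Hmox1 no longer called. A minimum 1.5-fold change also took the calls of all genes from 8817 to 4619, from 6590 to 2918 and from 3445 to 1463 at the 3 steps. With the replicate block the counts were 9, 5 and 2 at the steps and 8 in each other comparison, and the block changed no call of a heme gene. Signs that turned were those of Urod for intermediate against early (0.0539), Uros for BEC against early (0.0251) and Ppox for full against intermediate (0.117), all on total counts. Cpox for BEC against full, near 0 in any case, was -0.0248 with no filter, -0.00063 with the replicate block and -0.0120 with 6 libraries. With a library left out, values that turned sign ran from -0.596 to 0.0624 for Alas1 and from -0.0833 to 0.142 for Cpox in BEC against full, and from -0.0328 to 0.116 for Cpox in full against intermediate. The fit of 6 libraries also lost Ppox (adjusted p = 0.0552) and Hmox1 (adjusted p = 0.0892) at the first step. That fit gained Hmox1 for full against intermediate (-0.429, adjusted p = 0.0208). For intermediate against early, Hmox1 was also lost without intermediate replicate 2 (adjusted p = 0.0958) or 3 (adjusted p = 0.0856). Median-of-ratios factors lost Ppox (adjusted p = 0.0526). In all, 525 of the values with a library left out kept their direction and call, 7 lost the call, 1 gained it and 7 turned. The cause was not tested in any of these. Among the 9 heme genes and the 3 other enzymes of the pathway, depth limits Alas2 most, at 5 to 27 counts per library in full and BEC.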
